A study of Homo sapiens with 6 samples.

Results

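The genes described here are 40 genes whose proteins build ribosomes in the nucleolus. They were listed by symbol, as ribosome assembly genes known as targets of MYCN and its relatives, with no cut on a measured value, though earlier results of these data were known when the list was made. Each symbol matched 1 gene of the 36601 in the files, and all 40 passed the filter on low counts. SK-N-BE(2)-C, the line used throughout, was established from a human neuroblastoma and carries amplified MYCN. Single-cell RNA was counted as unique molecular identifiers (UMIs, 1 per captured RNA molecule) with Seq-Well S3, in which single cells share small wells with barcoded beads. The 6 libraries formed 3 groups of 2. The control cells received DMSO, the solvent. The TSA cells received trichostatin A, the usual meaning of this abbreviation, which blocks the enzymatic activity of histone deacetylases (HDACs). The E6R cells received E6R, in a series whose title speaks of an HDAC complex inhibitor that is not enzymatic. Neither doses and times nor the structure of E6R are given in the sources used here. All 3 groups are the same cell line, and nothing in the labels says that the replicates were separate cultures, so p-values measure the spread between these libraries only.

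Ribosomes are assembled in the nucleolus, the nuclear compartment that forms around the ribosomal RNA genes. RNA polymerase I (Pol I) transcribes these genes, small nucleolar RNA-protein particles (snoRNPs) guide the modification of the new RNA, and large sets of assembly factors then cut, fold and load it with ribosomal proteins as the small and the large subunit. MYCN and related transcription factors drive many of these genes, and enlarged nucleoli are a known feature of fast-growing tumour cells, neuroblastoma among them.

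After barcodes with at least 500 genes and at most 20% mitochondrial UMIs were kept as cells, the libraries held 1861 to 3946 cells and 4206366 to 26180262 UMIs each, the DMSO libraries being the shallowest. The adrenergic neuroblastoma markers PHOX2A, HAND2, GATA3, ISL1, TH, DBH and MYCN all had UMIs, and together took 0.124% and 0.177% of UMIs in the DMSO libraries, 0.0790% and 0.0877% in the TSA libraries and 0.156% and 0.264% in the E6R libraries. Of these 7 genes, 1 was lower and none higher under TSA than under DMSO (median log2 fold change -0.48), and 4 were higher and none lower under E6R than under TSA, by the edgeR test described with the results. Pairs of libraries shared 11 to 58 cell barcodes. Mitochondrial genes made up 5.83% to 9.71% of UMIs in the DMSO and TSA libraries and 1.51% to 1.55% in the E6R libraries. Replicate 1 of each treatment held more fibroblast marker UMIs (0.0150% to 0.0321% of UMIs over 6 markers) than replicate 2 (0.00315% to 0.00799%). Blood cell markers made up at most 0.00149% in any library, epithelial markers at most 0.00995% and endothelial markers at most 0.00660%. The part of mitochondrial RNA and of these markers in the results was not tested, beyond the values given with the summed share.

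Summed over the 40 genes, E6R libraries had the highest share of UMIs and TSA libraries the lowest. The genes took 0.716% and 0.672% of UMIs in the DMSO libraries, 0.559% and 0.536% in the TSA libraries and 0.867% and 0.980% in the E6R libraries. No 2 groups overlapped on this scale. The DMSO mean was 0.694% ± 0.0311 (SD, n = 2 here and for the other means), the TSA mean 0.547% ± 0.0168 and the E6R mean 0.924% ± 0.0800. E6R was thus 1.33 times DMSO and TSA 0.789 times DMSO. With 2 libraries a group, an exact permutation test (two-sided) cannot go below p = 0.333, and that was its value for each. E6R lay above DMSO within replicate 1 (0.867% against 0.716%) and within replicate 2 (0.980% against 0.672%). With mitochondrial and ribosomal protein genes removed from the totals, E6R exceeded DMSO by 0.234 percentage points, against 0.230 with them. Among the roles described below, the 6 abundant nucleolar proteins had means of 0.330% under DMSO, 0.258% under TSA and 0.493% under E6R. E6R also lay above DMSO without overlap for the box H/ACA snoRNP and small subunit genes. For the Pol I, box C/D snoRNP and large subunit genes, the E6R and DMSO libraries overlapped.

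The lower share under TSA depended on the scaling. TMM scaling, which sets libraries level by their middle genes and not by their totals, put the DMSO libraries at 0.640% and 0.616%, the TSA libraries at 0.607% and 0.621% and the E6R libraries at 0.865% and 0.966%. DMSO and TSA then overlapped, at a ratio of 0.978, and E6R stood at 1.46 times DMSO. In the text that follows, CPM means the UMI count scaled to a common library size with these TMM factors, and log2 fold changes with their standard errors and adjusted p-values come from edgeR's quasi-likelihood test over all 16763 genes tested. A gene is said to have risen or fallen where its adjusted p was under 0.05.

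**Figure D1:**
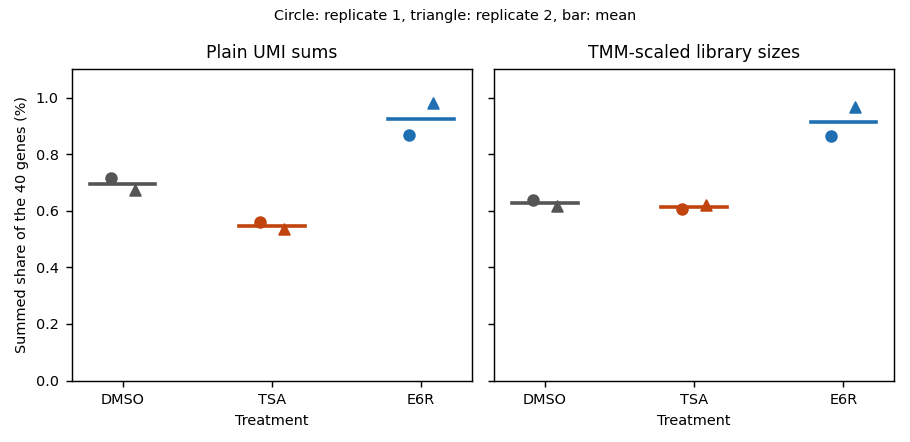
Share of UMIs from the 40 genes (percent) in each library by treatment, on plain UMI sums at left and on TMM-scaled library sizes at right, with a circle for replicate 1, a triangle for replicate 2 and a bar for the mean. The E6R libraries lie highest in both panels, and the TSA libraries lie below DMSO (0.559% and 0.536% against 0.716% and 0.672%) at left only.

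The same order was present across single cells. Each cell with at least 1000 UMIs was thinned at random to 1000, which left out 503 to 1718 shallower cells per library. The median cell then held 7 UMIs of the 40 genes in both DMSO libraries, 5 in both TSA libraries, and 8 and 10 in the E6R libraries. Cells with 10 or more such UMIs made up 21.2% and 18.0% of the DMSO libraries, 9.02% and 6.24% of the TSA libraries and 37.4% and 51.0% of the E6R libraries. Unthinned, the median cell held 6.79 and 6.45 per 1000 UMIs in the DMSO libraries, 5.46 and 5.17 in the TSA libraries and 8.41 and 9.58 in the E6R libraries. The variance over the mean was highest in the E6R libraries (1.61 and 1.71), whose means were also highest, beside 1.52 and 1.24 in the DMSO libraries and 1.28 and 1.23 in the TSA libraries. These counts are shares of each cell's UMIs and carry the same dependence on scaling as the library sums. Like those sums, they weigh the abundant genes most.

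**Figure D2:**
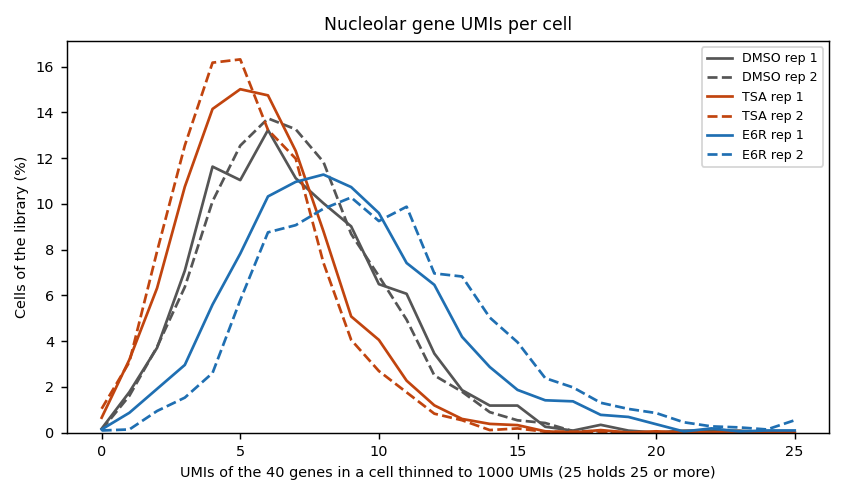
Percent of cells (vertical axis) by the number of UMIs of the 40 genes in a cell thinned to 1000 UMIs (horizontal axis), with 1 line per library, solid for replicate 1 and dashed for replicate 2. The TSA lines peak to the left of the DMSO lines and the E6R lines to the right, with medians of 5, 7, and 8 to 10 UMIs.

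Under TSA the 40 genes split, with calls in both directions. Against DMSO, 4 rose and 8 fell, while 28 did not pass the test. Of all genes tested, 29.7% passed this threshold (16.2% higher and 13.5% lower), and of the 7515 genes with a mean of at least 20 CPM, 39.7% did (21.4% higher and 18.3% lower). The share of members called, 12 of 40, was close to the first and below the second. The median log2 fold change of the 40 was -0.11, beside -0.01 for all genes tested. With total counts in place of TMM, the members split into 3 higher and 11 lower, and all genes into 1717 higher and 3361 lower instead of 2720 and 2255, with the median of all genes at -0.32. Of the 12 calls among the 40, 9 were among the 13 large subunit factors. None was among the 10 small subunit factors, which did not hold for such factors outside the 40. There UTP18 and EMG1 fell, and HEATR1, NOL6, NOL10, TBL3 and DDX49, among others, rose. The count was 4 without TSA replicate 2 (UBTF, NOP2, NOC2L and BOP1), 6 without TSA replicate 1, and 8 without DMSO replicate 1 and 8 without DMSO replicate 2.

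Under E6R no member passed the test against DMSO, and the smallest adjusted p was 0.205. The test called 0.0% of all genes in this comparison. All 40 fitted values lay above 0, with a median log2 fold change of 0.45. Over all genes tested 52.0% lay above 0 and the median was 0.03, and over the 7515 genes with a mean of at least 20 CPM 67.0% lay above 0 and the median was 0.18. The count of 40 became 34 to 39 under 7 of 18 alternatives, and it was lowest, at 34, with total counts only, without DMSO replicate 2 and without E6R replicate 2. Both E6R libraries lay above both DMSO libraries for 29 of the 40, against 24.6% of all genes, those of low count included. At an unadjusted p under 0.05 there were 15 members, all higher, against 8.04% of all genes that were higher at that level. Of the 7515 genes with a mean of at least 20 CPM, 1316 were at that level in either direction. DESeq2 called 4 members higher (NPM1, NOLC1, DDX21 and WDR43), against 2.03% of the genes it tested, and edgeR without the low-count filter called 6, the same 4 with NPM3 and NOP10, against 2.28%.

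Set directly against TSA, E6R had higher levels for many of the genes. E6R against TSA had 16 members higher and 3 lower (BOP1, NOP2 and NOC2L), against a background of 38.2% of all genes called (18.7% higher and 19.5% lower). Of the genes with a mean of at least 20 CPM, 46.4% were called (26.5% higher and 19.9% lower), close to the 47.5% of members. The median log2 fold change was 0.46, beside -0.09 for all genes and 0.10 for those with at least 20 CPM. Without TSA replicate 2 the count was 10, 9 higher and 1 lower (NOC2L), since NPM3, DDX21, NOP10, GAR1, NOP2, BOP1, WDR12, WDR74 and PPAN no longer passed. Without TSA replicate 1, DDX21, WDR43, WDR12, PPAN and BOP1 did not pass, without E6R replicate 1 BOP1 did not, and without E6R replicate 2 DDX21 did not. In 10 members both TSA libraries lay below both DMSO libraries while both E6R libraries lay above them, an order found in 9.28% of all genes: UBTF, NPM1, DKC1, GAR1, UTP20, WDR43, NOP16, WDR12, RRS1 and NIP7. In another 10 both treatments lay above DMSO, against 9.95% of all genes: POLR1B, NOLC1, GNL3, NOP56, NHP2, NOP14, UTP15, NOB1, NOP2 and BOP1. These are orders of 2 libraries per group and most of their steps did not pass the test.

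**Figure D3:**
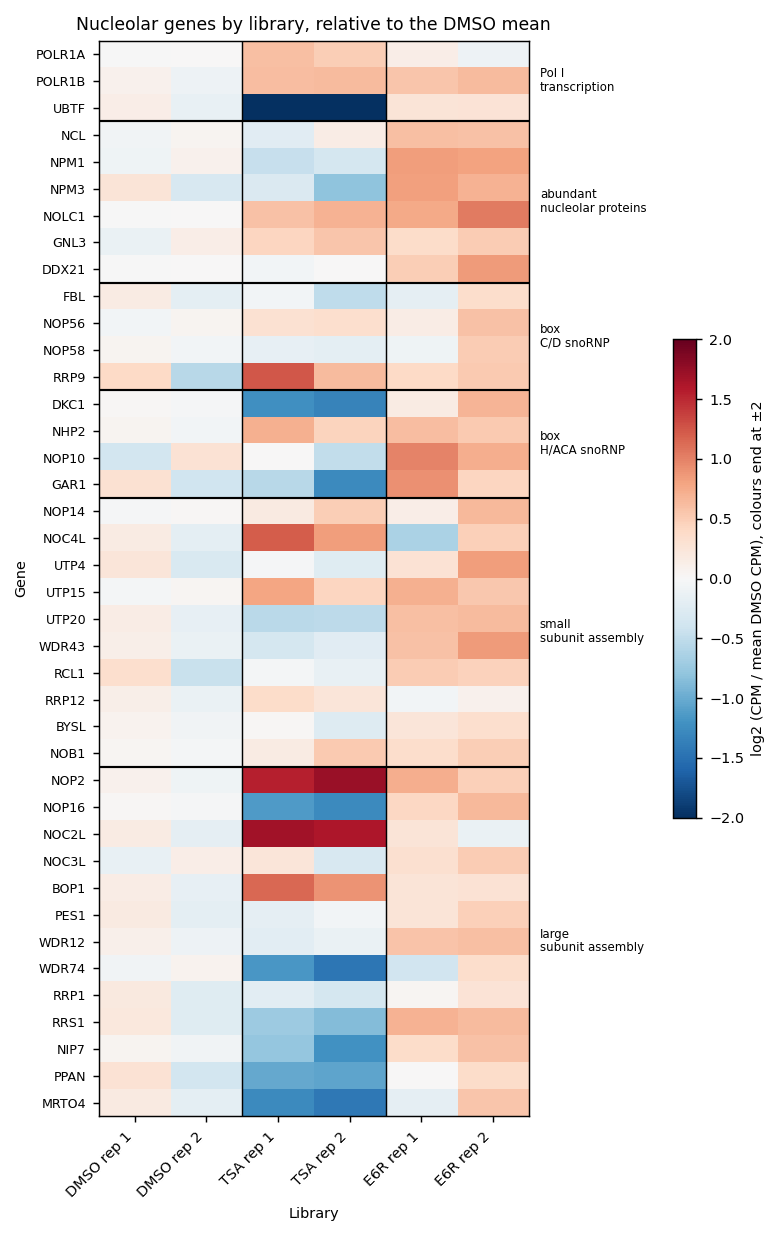
Level of each of the 40 genes (rows, grouped by role) in each of the 6 libraries (columns), as log2 of CPM over the mean CPM of the DMSO libraries, with colours ending at 2 on either side. The E6R columns are mostly red, while the TSA columns hold the strongest blue (UBTF) and the strongest red (NOC2L and NOP2).

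**Figure D4:**
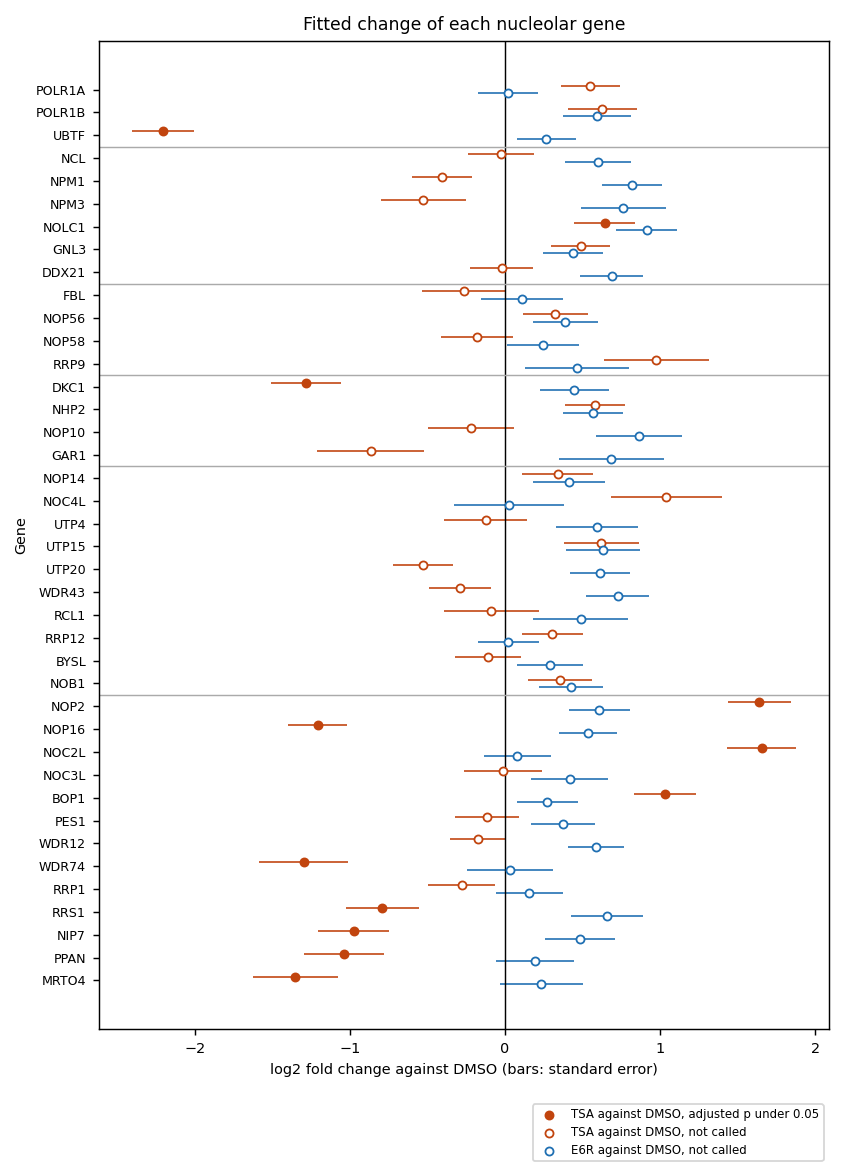
Fitted log2 fold change against DMSO (horizontal axis, bars are standard errors) of each gene (vertical axis) for TSA and E6R, filled where the adjusted p was under 0.05. The E6R points lie between 0.02 and 0.91, all unfilled, and the TSA points spread from -2.21 to 1.65 with 12 filled. Both series share the DMSO libraries.

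Transcription of the ribosomal RNA genes was represented by 3 genes, of which 1 fell under TSA. UBTF encodes the upstream binding factor that coats active ribosomal RNA genes (chr17:44205033-44221626 in GRCh38, GENCODE 29). It stood at 173 and 141 CPM under DMSO, 32.3 and 35.7 under TSA and 187 and 190.2 under E6R. Both TSA libraries lay far below all other libraries. Its fitted level was 4.61-fold lower under TSA than under DMSO, a log2 fold change of -2.21 ± 0.20 (SE) with an adjusted p of 0.000842, the lowest adjusted p and the largest change among the 40. Against TSA, E6R was 5.54-fold higher (adjusted p 0.000352), and against DMSO the log2 fold change of E6R was 0.27 with an adjusted p of 0.502. UBTF overlaps 2 antisense transcripts, and none of the sources used here states whether the counting used strand, which also holds for every other overlap named. POLR1A, the largest catalytic subunit of Pol I, was measured at 49.7 and 50.1 CPM under DMSO, 75.9 and 70.3 under TSA and 54.8 and 46.3 under E6R. Its TSA libraries lay above all others, at a log2 fold change of 0.55 against DMSO and an adjusted p of 0.0645 that missed the threshold. POLR1B, the other large core subunit, had log2 fold changes of 0.63 under TSA and 0.59 under E6R, neither past the threshold.

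Of the 6 roles, the abundant nucleolar proteins held the largest share of UMIs (0.248% to 0.506% per library), and 3 of the 6 genes were higher under E6R than under TSA. In this comparison 18.7% of all genes were higher, and 26.5% of those with a mean of at least 20 CPM. NPM1, nucleophosmin, is a chaperone of histones and ribosomal proteins. It stood at 939 and 1055 CPM under DMSO, 725 and 780.1 under TSA and 1780.0 and 1734 under E6R. The E6R libraries were the highest and the TSA libraries the lowest, without overlap. E6R was 2.34-fold higher than TSA (1.22 ± 0.20 (SE) on the log2 scale, adjusted p 0.00274) and had a fitted 1.76-fold difference from DMSO at an adjusted p of 0.205. NPM1 has 45 annotated pseudogenes in GENCODE 29 and none among the genes of the files, so its counts are uncertain for reads shared with near-identical copies. NPM3, a related histone chaperone, was also higher under E6R than under TSA, by 1.29 (log2, adjusted p 0.00817). DDX21, an RNA helicase that binds ribosomal DNA and snoRNAs, stood at 388 and 390.4 CPM under DMSO, 373 and 393 under TSA and 549 and 704 under E6R. DMSO and TSA overlapped and both E6R libraries lay above them; E6R against TSA gave 0.71 (log2, adjusted p 0.0268), which did not pass without either TSA replicate or without E6R replicate 2.

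NCL, nucleolin, binds nascent ribosomal RNA. Its levels were 1132 and 1234 CPM under DMSO, 1009.9 and 1312 under TSA and 1800.4 and 1784 under E6R. The TSA libraries spanned the DMSO libraries, and the log2 fold change of E6R against TSA was 0.63 with an adjusted p of 0.0504, just outside the threshold. In this comparison NCL passed in 9 of 18 alternative settings. NOLC1, a chaperone of snoRNPs, rose under TSA. It stood at 262 and 264 CPM under DMSO, 392 and 427 under TSA and 447 and 543 under E6R. Both treatments lay above DMSO, by 0.64 ± 0.20 (SE) for TSA (log2, adjusted p 0.0418) and by 0.91 for E6R (adjusted p 0.205), the largest fitted difference of any member for E6R. The TSA call was lost in 12 of 18 alternative settings, each leave-one-out of a DMSO or TSA library among them. GNL3, nucleostemin, a GTP-binding protein of the nucleolus, had log2 fold changes of 0.49 and 0.44, which did not pass.

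The box C/D snoRNPs, which guide ribose methylation, had no member that passed the test in any of the 3 comparisons. FBL, fibrillarin, is their methyltransferase. It stood at 435 and 339.7 CPM under DMSO, 372 and 272 under TSA and 342 and 493 under E6R, and all 3 groups overlapped. At an unadjusted p under 0.05 edgeR found 1 of the 4 for TSA against DMSO (RRP9) and none for the other comparisons. Of all 16763 genes, 7149 were at that level for TSA against DMSO, 2913 for E6R against DMSO and 8122 for E6R against TSA. NOP58, a core protein of the particle, was measured at 287 and 268 CPM under DMSO, 248 and 242 under TSA and 262 and 396 under E6R. NOP56, its partner, had log2 fold changes of 0.32 under TSA and 0.39 under E6R. RRP9, a protein of the C/D particle that serves early cleavage, had the widest fitted value of the 4 under TSA at 0.97, with an adjusted p of 0.0633, and it passed in 8 of 18 alternative settings. Its DMSO libraries differed from each other nearly as much as the groups did, at 43.1 and 22.4 CPM.

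Within the box H/ACA snoRNPs, which guide the conversion of uridine to pseudouridine, the enzyme fell under TSA while the other 3 genes did not pass the test, and the difference between them was not tested. Of these 3, NHP2 passed in 5 of 18 alternative settings and GAR1 in 3. DKC1, dyskerin, is the pseudouridine synthase and also belongs to telomerase (chrX:154762742-154777689 in GRCh38, GENCODE 29). It stood at 264 and 254 CPM under DMSO, 110.3 and 103 under TSA and 289 and 416 under E6R. The TSA libraries lay below all others, 2.43-fold below DMSO (-1.28 ± 0.23 (SE) on the log2 scale, adjusted p 0.00586). E6R was 3.31-fold higher than TSA (adjusted p 0.00132). Without TSA replicate 2 the fall under TSA was no longer called (adjusted p 0.0648). NHP2, an RNA-binding partner in the same particle, was measured at 186 and 173 CPM under DMSO, 293 and 244 under TSA and 276 and 257 under E6R. Both treatments lay above DMSO for NHP2, with log2 fold changes of 0.58 (adjusted p 0.0548) and 0.57 (adjusted p 0.224). The ratio of NHP2 to DKC1 UMIs was thus 0.707 and 0.682 under DMSO, 2.66 and 2.38 under TSA and 0.955 and 0.619 under E6R. NHP2 overlaps RMND5B on the other strand. GAR1, a further core protein, stood at 42.9 and 26.4 CPM under DMSO, 23.5 and 14.4 under TSA and 65.0 and 46.4 under E6R. The E6R libraries of GAR1 were 2.93-fold above TSA (adjusted p 0.00964), a call that was lost without TSA replicate 2. NOP10, the smallest protein of the particle, was also higher under E6R than under TSA, by 1.08 (log2, adjusted p 0.0172).

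Among the 10 small subunit factors of the list none passed the test for TSA against DMSO, against 29.7% of all genes. An unadjusted p under 0.05 (edgeR) was reached by 3 of the 10. It was reached by 7149 of all 16763 genes, and by 3908 of the 7515 with a mean of at least 20 CPM. Under E6R, 2 of the 10 were higher than under TSA, against 18.7% of all genes. WDR43, a protein of the early complex that joins Pol I transcription to processing, stood at 180.2 and 151 CPM under DMSO, 129 and 141 under TSA and 248 and 299 under E6R. The 3 groups did not overlap, and E6R lay 2.02-fold above TSA (1.02 ± 0.20 (SE) on the log2 scale, adjusted p 0.00635). UTP20, a large scaffold protein of the small subunit precursor, showed the same order at 82.6 and 66.0 CPM under DMSO, 51.1 and 51.8 under TSA and 112 and 115 under E6R. Its log2 fold change of E6R against TSA was 1.14 (adjusted p 0.00324), while TSA against DMSO gave -0.53 (adjusted p 0.0717). NOP14, which enters the precursor early, stood at 98.8 and 102 CPM under DMSO, 113 and 140.3 under TSA and 110.1 and 157 under E6R and passed in no comparison. NOC4L, its binding partner, had TSA libraries above all others but missed the threshold, at 1.04 against DMSO (adjusted p 0.0607), and passed in 6 of 18 alternative settings. Its E6R libraries differed from each other by more than its DMSO and TSA pairs did, at 33.7 and 72.6 CPM. The remaining 6 (UTP4, UTP15, RCL1, RRP12, BYSL and NOB1) had log2 fold changes from -0.13 to 0.62 under TSA and from 0.02 to 0.63 under E6R, and none passed. They include UTP4 and UTP15 of the same early complex as WDR43, RRP12, which serves export from the nucleus, and NOB1, the nuclease of the last cleavage. For E6R against TSA, UTP4 had a log2 fold change of 0.72 (adjusted p 0.0647) and passed in 8 of 18 alternative settings.

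The large subunit factors had most of the calls among the members. Of 13, 3 rose and 6 fell under TSA, and against TSA 7 were higher and 3 lower under E6R. These were 69.2% and 76.9% called. All genes had 29.7% and 38.2% called, and genes with a mean of at least 20 CPM 39.7% and 46.4%. Many large subunit factors outside the 40 were not called for TSA against DMSO, such as RSL1D1, SDAD1, EIF6 and PELP1. Of those called, EBNA1BP2, RSL24D1, DDX24, DDX27, FTSJ3, GNL2, NMD3, LYAR, NVL, URB1 and ZNF622 rose, and only TMA16 and NLE1 fell. The calls outside the 40 were thus mostly rises, where those of the members were mostly falls. The 3 members that rose under TSA were NOC2L, NOP2 and BOP1. NOC2L, which acts in transport of the large subunit precursor and also binds histones as an inhibitor of acetylation (chr1:944204-959309 in GRCh38, GENCODE 29), stood at 108 and 85.3 CPM under DMSO, 310.1 and 297 under TSA and 116 and 88.5 under E6R. The TSA libraries lay 3.15-fold above DMSO (1.65 ± 0.22 (SE) on the log2 scale, adjusted p 0.00238), and DMSO and E6R overlapped. NOC2L overlaps SAMD11 on the other strand. Its partner NOC3L did not pass, at -0.01 under TSA, and the ratio of NOC2L to NOC3L UMIs went from 2.82 and 1.85 under DMSO to 6.21 and 8.84 under TSA, with 2.19 and 1.48 under E6R. NOP2, a methyltransferase of the large ribosomal RNA, was measured at 45.5 and 40.4 CPM under DMSO, 125 and 142 under TSA and 71.1 and 59.6 under E6R. TSA was 3.12-fold higher than DMSO (1.64 ± 0.20 (SE) on the log2 scale, adjusted p 0.00173), and E6R was 2.05-fold lower than TSA (adjusted p 0.00505). NOP2 overlaps AC006064.6, a protein-coding gene on the same strand, so its count is uncertain.

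BOP1, PES1 and WDR12 form PeBoW, a stable complex needed to process the large subunit RNA. BOP1 rose under TSA, while the other 2 genes did not pass the test, and the difference between them was not tested. BOP1 stood at 69.5 and 56.4 CPM under DMSO, 139.7 and 117 under TSA and 75.3 and 76.8 under E6R. The TSA libraries were 2.04-fold above DMSO (1.03 ± 0.20 (SE) on the log2 scale, adjusted p 0.00824), a call lost without DMSO replicate 2 or TSA replicate 1. PES1 was measured at 90.1 and 69.8 CPM under DMSO, 70.6 and 76.8 under TSA and 95.9 and 111 under E6R and did not pass in any comparison. WDR12 stood at 84.8 and 73.4 CPM under DMSO, 68.3 and 71.9 under TSA and 118 and 119.5 under E6R. It did not pass for TSA against DMSO (log2 fold change -0.17) and was higher under E6R than under TSA by 0.76 (log2, adjusted p 0.0129). The ratio of BOP1 to PES1 UMIs was 0.771 and 0.808 under DMSO, 1.98 and 1.53 under TSA and 0.785 and 0.691 under E6R, while that of PES1 to WDR12 lay between 0.816 and 1.07 in all 6 libraries. BOP1 overlaps SCX, PES1 overlaps TCN2 and WDR12 overlaps CARF, each on the other strand.

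**Figure D5:**
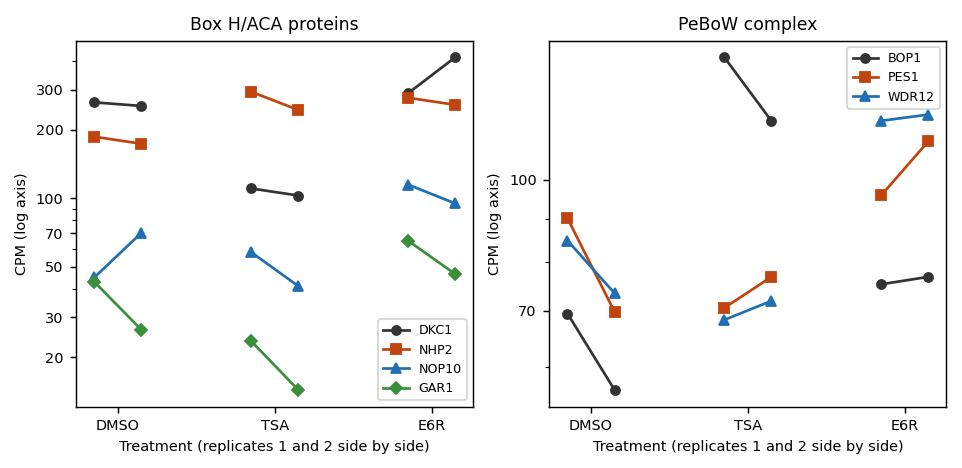
CPM on a log axis of the 4 box H/ACA protein genes (left) and the 3 PeBoW genes (right) by treatment, with replicates 1 and 2 side by side and joined by a line. In the TSA libraries the DKC1 points lie below those of the other treatments, and the BOP1 points above them.

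The 6 large subunit factors that fell under TSA were MRTO4, WDR74, NOP16, PPAN, NIP7 and RRS1. MRTO4, which holds the place of the stalk protein on the precursor, stood at 153 and 119 CPM under DMSO, 56.2 and 50.2 under TSA and 120.2 and 199 under E6R. TSA was 2.55-fold below DMSO (-1.35 ± 0.28 (SE) on the log2 scale, adjusted p 0.01), and E6R lay 1.59 above TSA on the same scale (adjusted p 0.0037). NOP16, a nucleolar factor of the large subunit, was measured at 89.0 and 85.3 CPM under DMSO, 39.6 and 35.9 under TSA and 116 and 136 under E6R. Its groups did not overlap, with TSA 2.31-fold below DMSO (adjusted p 0.00398) and E6R 3.34-fold above TSA (adjusted p 0.000698). WDR74, an assembly factor that works with the ATPase NVL, stood at 45.7 and 50.5 CPM under DMSO, 21.5 and 17.6 under TSA and 36.8 and 61.4 under E6R. The TSA libraries were 2.46-fold below DMSO (-1.30 ± 0.29 (SE) on the log2 scale, adjusted p 0.0133), while the E6R libraries lay on either side of the DMSO libraries. PPAN fell by 1.04 on the log2 scale (adjusted p 0.0202), NIP7 fell by 0.98 (adjusted p 0.0167) and RRS1 fell by 0.79 (adjusted p 0.0379). All 6 were higher under E6R than under TSA, by 1.23 to 1.74 on the log2 scale. With only 1 of the TSA libraries, none of the 6 passed the test for TSA against DMSO except NOP16 and NIP7 without TSA replicate 1. Without DMSO replicate 1, RRS1, NIP7, PPAN and MRTO4 did not pass, and without DMSO replicate 2, WDR74 and NIP7 did not. MRTO4 overlaps EMC1, NOP16 overlaps ARL10 and HIGD2A, and NIP7 overlaps COG8 on the other strand, and PPAN shares its locus with the read-through gene PPAN-P2RY11, so its count is uncertain. WDR74 overlaps TEX54 and RRS1 overlaps AC009879.2 on the same strand, which makes their counts uncertain too. RRP1, the remaining large subunit factor, passed in no comparison.

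The E-box CACGTG, the site that MYCN binds together with its partner MAX, was looked up in the RefSeq promoters of the members (GRCh38.p14, 250 bases before to 50 after each start). The motif reads the same on both strands. Of the 35 members with a promoter entry, 16 (45.7%) held it in at least 1 window, against 8.77% of 27305 genes overall. By window, 16 of 43 (37.2%) held it, against 7.26% of all 35116 windows of the same length. The other ribosome biogenesis genes held it in 30.2% of genes and the cytosolic ribosomal protein genes in 6.35%. The members were listed as known targets of MYCN and its relatives, so their share is not independent of that choice. The genes overall were not matched to them in expression or base content. Calls were present with and without the motif, and the difference between the sets was not tested. Of the 16 with it, 1 rose and 1 fell under TSA and 6 were higher and 1 lower for E6R against TSA, with a median log2 fold change of 0.53 in the latter. Of the 19 without it, 1 rose and 6 fell under TSA and 9 were higher and 1 lower for E6R against TSA, with a median of 0.63. For TSA against DMSO the medians were -0.11 with the motif and -0.17 without it. Of all genes, 29.7% were called for TSA against DMSO and 38.2% for E6R against TSA. A match is a description of these letters, not of binding. NOLC1, NOP58, RRP12, BOP1 and RRS1 had no entry.

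The promoters of 5 members that hold the motif within this stretch and were higher under E6R than under TSA are shown first, from 70 bases before to 30 after the start, 5′ to 3′ on the gene's strand, with the E-box in capitals. The motif begins at position -10 in UTP20, chr12:101280035-101280134 (plus strand), at -11 in NOP10, chr15:34343107-34343206 (minus strand), with a further one at -170 that is not shown, at -31 in DDX21, chr10:68956577-68956676 (plus strand), at 4 in WDR43, chr2:28894597-28894696 (plus strand), and at 15 in MRTO4, chr1:19251735-19251834 (plus strand), counted from the start as 1.
UTP20: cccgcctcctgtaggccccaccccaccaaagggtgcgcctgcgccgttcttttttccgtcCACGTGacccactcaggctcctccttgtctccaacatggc
NOP10: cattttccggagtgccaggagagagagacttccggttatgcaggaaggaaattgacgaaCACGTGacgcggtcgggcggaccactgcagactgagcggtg
DDX21: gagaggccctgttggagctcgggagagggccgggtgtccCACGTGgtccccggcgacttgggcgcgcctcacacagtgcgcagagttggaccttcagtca
WDR43: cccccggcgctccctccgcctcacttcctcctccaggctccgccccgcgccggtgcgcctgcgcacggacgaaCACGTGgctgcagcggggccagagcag
MRTO4: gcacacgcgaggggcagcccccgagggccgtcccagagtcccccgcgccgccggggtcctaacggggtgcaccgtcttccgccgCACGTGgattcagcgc

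The next 3 belong to members that fell under TSA, were higher under E6R than under TSA and hold no CACGTG in the listed windows. They are UBTF, chr17:44220853-44220952 (minus strand), the first of its 2 listed starts, DKC1, chrX:154762794-154762893 (plus strand), and NOP16, chr5:176388569-176388668 (minus strand). None has letters in capitals.
UBTF: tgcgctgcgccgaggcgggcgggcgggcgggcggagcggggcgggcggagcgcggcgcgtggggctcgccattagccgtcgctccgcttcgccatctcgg
DKC1: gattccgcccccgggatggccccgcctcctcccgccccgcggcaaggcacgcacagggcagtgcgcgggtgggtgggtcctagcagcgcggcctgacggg
NOP16: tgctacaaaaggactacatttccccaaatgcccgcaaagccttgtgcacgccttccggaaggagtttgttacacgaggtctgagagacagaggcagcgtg

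MYCN itself stood at 394 and 313 CPM under DMSO, 215 and 291 under TSA and 733 and 657 under E6R. The E6R libraries were the highest and the TSA libraries the lowest, without overlap. E6R was 2.75-fold higher than TSA (1.46 ± 0.23 (SE) on the log2 scale, adjusted p 0.00273). Against DMSO the log2 fold change was -0.48 for TSA (adjusted p 0.148) and 0.98 for E6R (adjusted p 0.205).

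Of 112 further ribosome biogenesis genes, 27 rose and 6 fell under TSA (29.5% called, against 29.7% of all genes), with a median log2 fold change of 0.30. Those with the largest rises were WDR46 (1.34), ZNF622 (1.24) and DDX24 (1.24), and those with the largest falls were ZNRD1, a small Pol I subunit (-1.45), EMG1, a methyltransferase of the small subunit RNA (-1.17), and TMA16 (-1.02). For E6R against DMSO none passed, 102 of 112 fitted values lay above 0 and the median was 0.37. An unadjusted p under 0.05 (edgeR) was reached by 35 of 112, beside 2913 of all 16763 genes. Of all genes 52.0% lay above 0, and 67.0% of those with a mean of at least 20 CPM. E6R against TSA had 16 higher and 12 lower (28 of 112 called, against 38.2% of all genes), led by ZNRD1 (1.92), UTP18 (1.64) and BRIX1 (1.48), and by URB1 (-1.28), RUVBL2 (-1.08) and TBL3 (-1.02). UTP18, of the small subunit precursor, stood at 71.0 and 76.7 CPM under DMSO, 41.9 and 42.1 under TSA and 127 and 134 under E6R, without overlap between groups.

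The 79 cytosolic ribosomal protein genes, whose products are the cargo of this pathway, had 21 higher and none lower under TSA (edgeR; 26.6% called, against 29.7% of all genes), with a median of 0.53, where the 40 nucleolar genes had a median of -0.11. For E6R against DMSO none passed, 77 of 79 lay above 0 and the median was 0.44, beside 0.45 for the nucleolar genes. An unadjusted p under 0.05 was reached by 28 of 79, and by 2913 of all 16763 genes. Of all genes 52.0% lay above 0, and 67.0% of those with a mean of at least 20 CPM. For E6R against TSA 4 were higher and 5 lower (11.4% called, against 38.2% of all genes), with a median of -0.13, where the nucleolar genes had 0.46. The 16 host genes of small nucleolar RNAs had 1 lower under TSA (SNHG15, -1.31) and none higher (6.25% called, against 29.7% of all genes). For E6R against DMSO none passed, all 16 lay above 0 (52.0% of all genes did) and the median was 0.52. An unadjusted p under 0.05 (edgeR) was reached by 6 of 16, beside 2913 of all 16763 genes. For E6R against TSA 8 were higher and none lower, led by SNHG32 (1.69), SNHG15 (1.60) and DANCR (1.49). DANCR stood at 108 and 115 CPM under DMSO, 83.6 and 59.3 under TSA and 192 and 208 under E6R. No difference between these lists and the 40 genes was tested.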

How the data were processed

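Per the labels' protocols, cells were harvested and sequenced with Seq-Well S3. Per the submitters' processing notes, STARsolo 2.7.9a and GRCh38 were used; the sources used here do not give the cell rule or strand setting. The authors deposited raw UMI counts per gene and barcode (36601 genes, 90306 barcodes), not normalized. Barcodes with at least 500 genes and at most 20% mitochondrial UMIs (17589) were kept, and counts were summed per library, since cells are not replicates. Doublets were not called; an alternative dropped the 5% of cells with the highest UMI counts per library. The sums were tested with edgeR 4.0.16 (R 4.3.3; quasi-likelihood, TMM, filterByExpr, group only, all 6 libraries in 1 fit, Benjamini-Hochberg adjustment at 0.05 over 16763 genes, common biological coefficient of variation 0.288), checked on simulated data. Standard errors were computed from the F statistic. DESeq2 1.42.0 and other settings were alternatives. Coordinates are from GENCODE 29 and promoters from RefSeq (GRCh38.p14). Members given library by library were the 2 with the highest mean CPM of each role, the 5 largest called rises and falls for TSA against DMSO and E6R against TSA, and the 3 smallest p for E6R against DMSO; others (DDX21, UTP20, PES1, WDR12) were added after their values were seen. For the further ribosome biogenesis genes and the snoRNA host genes, the 3 largest called rises and falls were named; no rule named ribosomal protein genes. MYCN was named regardless. The members and lists were chosen with earlier results of these data known.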

Additional observations from a re-analysis of the deposited data

How the results depend on the processing

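Counts of members called are out of 40. Leaving out 1 library at a time gave 4 (without TSA replicate 2) to 16 (without E6R replicate 1) calls for TSA against DMSO, where all 6 libraries gave 12, and 6 without TSA replicate 1. For E6R against TSA the range was 10 (without TSA replicate 2) to 21 (without either DMSO replicate), beside 19 in all. For E6R against DMSO it was 0 in each. E6R against DMSO had 4 calls with DESeq2 and 6 without the low-count filter, and 0 in the other 16 alternatives. The median log2 fold change of the members for TSA against DMSO turned from -0.11 to 0.0825 over all deposited barcodes; the cause was not tested. The share of UMIs, TSA minus DMSO, went from -0.146 to -0.0139 percentage points on TMM-scaled library sizes, and E6R minus DMSO from 0.230 to 0.287. Leaving out 1 library moved the former between -0.168 and -0.124 and the latter between 0.173 and 0.286. The replicate block gave 16 calls for TSA against DMSO (the 12 with RRP9, NHP2, GAR1 and NOC4L), 0 for E6R against DMSO and 22 for E6R against TSA. Deviations of same-numbered libraries correlated at 0.242 (DMSO and TSA), 0.564 (DMSO and E6R) and 0.166 (TSA and E6R) over 7515 genes, with only 2 numbers and no label that says what they share. UBTF, NOP2 and NOC2L were called for TSA against DMSO in all 18 alternatives, and 9 of the 19 members for E6R against TSA. The TMM-scaled share and the removal of shared cell barcodes were chosen after seeing the data; without shared barcodes the calls were 11, 0 and 20. With library sums thinned to 1 depth the calls were 11, 0 and 20, with cells thinned to 1000 UMIs 9, 0 and 18, and with all deposited barcodes 17, 0 and 19.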
